A study of Homo sapiens with 12 samples.

Results

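The genes described here are the plasminogen activators PLAU and PLAT, the activator receptor PLAUR, the activator inhibitor SERPINE2, and the matrix metalloproteinases MMP1, MMP2, MMP3 and MMP14. These 8 of the 58051 genes in the count table were chosen by name, under no rule on their measured values but with earlier results of these data known. They were measured by RNA sequencing in MDA-MB-231, an established triple-negative breast cancer cell line of mesenchymal appearance. Cells were transfected with a non-targeting siRNA pool (siControl), a pool against NELFA (siNELFA), a pool against YAP1 (siYAP), or both targeting pools (siNELFA+siYAP), and 3 libraries were made per group. NELFA is a subunit of the negative elongation factor that holds RNA polymerase II near gene starts, and YAP1 is a transcription coactivator of the Hippo pathway. All groups were the same line on serum-containing medium, siRNA was used at 50 to 100 nM, and the labels give harvest at 48 h and 72 h without assigning a time to a library. For RNA, the methods describe harvest at 72 h and 3 independent replicates per condition. Each target is a pool of siRNAs, so effects of single siRNAs were not separated.

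Plasminogen is an inactive precursor that urokinase (the product of PLAU) and tissue-type activator (the product of PLAT) cut to plasmin, a broad protease that dissolves fibrin and cuts matrix proteins. The receptor encoded by PLAUR holds urokinase at the cell surface, and serpins, among them protease nexin-1 (the product of SERPINE2), trap and inactivate the activators. Plasmin can also activate matrix metalloproteinase precursors. MMP1 cuts fibrillar collagen, MMP3 is a stromelysin with many matrix substrates, MMP2 is a gelatinase, and MMP14 is a membrane-anchored protease that activates the MMP2 precursor. In mesenchymal breast cancer cells these proteases are known for their part in matrix invasion.

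The libraries held 9608145 to 18803104 counts. NELFA stood at 25.3 to 27.9 CPM (counts normalised to library size) in siControl and at 6.35 to 9.96 in the 6 libraries that received its siRNA. YAP1 stood at 247 to 302 CPM in siControl and at 37.7 to 46.2 in the 6 libraries that received its siRNA. The line's markers VIM and CD44 were abundant, at 750 to 1181 and 575 to 1170 TPM (transcript abundance scaled for gene length and depth), while ESR1 did not exceed 2.53 TPM and PGR did not exceed 0.0687 TPM. Of the 5 leukocyte markers CD3E was at 0 in all 12 libraries, PTPRC and CD79A did not exceed 0.985 and 0.429 TPM, CSF1R was at 1.09 to 6.81 and CD14 at 1.73 to 22.5, and their sum was 6.80 to 13.6 TPM in siControl, 5.36 to 24.5 with siNELFA, 7.90 to 15.1 with siYAP and 9.26 to 10.1 with both. Of the 6 fibroblast markers PDGFRB was at 3.67 to 17.1 TPM, COL1A1 at 2.59 to 12.1 and LUM at 0.438 to 2.18, while DCN, PDGFRA and COL3A1 did not exceed 0.657, 0.258 and 0.213, and their sum was 10.9 to 27.8 TPM in siControl, 10.9 to 24.6 with siNELFA, 11.4 to 30.2 with siYAP and 12.8 to 18.04 with both. The 4 endothelial markers summed to at most 2.68 TPM. Of the 4 luminal markers the keratins KRT8 and KRT18 were at 126 to 177 TPM, GATA3 was at 1.64 to 4.36, and FOXA1 did not exceed 0.437. The replicate 1 libraries of siControl, siNELFA and siYAP stood apart. Their groups had a biological coefficient of variation of 0.365, 0.351 and 0.364 over 3 libraries, and of 0.125, 0.155 and 0.149 without replicate 1, against 0.0615 in siNELFA+siYAP. In these 3 libraries CDH1 was at 7.06 to 11.97 TPM, EPCAM at 13.0 to 19.2 and CD14 at 9.31 to 22.5, against at most 1.58, 9.21 and 4.67 in the other 9. VIM and MSN were lower there than in each of the other 9. The part of these differences in the results on the 8 genes was not tested, and values without replicate 1 are given where they matter. The titles number the siNELFA+siYAP libraries as replicates 1 to 3, but their library names carry the number 1 and an index. The labels do not say whether they came from separate cultures, and if they did not, p-values measure only the spread between these libraries. The siNELFA+siYAP libraries did not share the replicate pattern of the others, so any batch of their own cannot be told apart from the double knockdown.

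Compared per transcript length in TPM, the 8 genes covered a wide range. In siControl the order was MMP14 at 204 ± 53.6 (SD, n = 3), PLAU at 162 ± 19.5, PLAUR at 111 ± 23.9, PLAT at 111 ± 41.5, MMP1 at 92.6 ± 12.7, SERPINE2 at 12.7 ± 6.20, MMP3 at 1.87 ± 1.67 and MMP2 at 0.473 ± 0.819 TPM. MMP14 and PLAU overlapped, PLAUR, PLAT and MMP1 overlapped one another, and SERPINE2 was below all of these in every siControl library. In siNELFA+siYAP the order was MMP14 at 297 ± 14.5, PLAU at 257 ± 3.19, PLAUR at 225 ± 3.13, MMP1 at 138 ± 1.80, PLAT at 105 ± 6.74, SERPINE2 at 28.7 ± 1.68, MMP3 at 7.41 ± 1.59 and MMP2 at 0.0401 ± 0.0352 TPM. There MMP1 lay above PLAT, and no neighbours in the order overlapped. Of the 8, the transcripts with the highest mean TPM in both groups were thus those of the membrane protease and then urokinase. The urokinase receptor followed, level with PLAT at 111 TPM in siControl, and MMP2 was at the edge of detection.

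**Figure D1:**
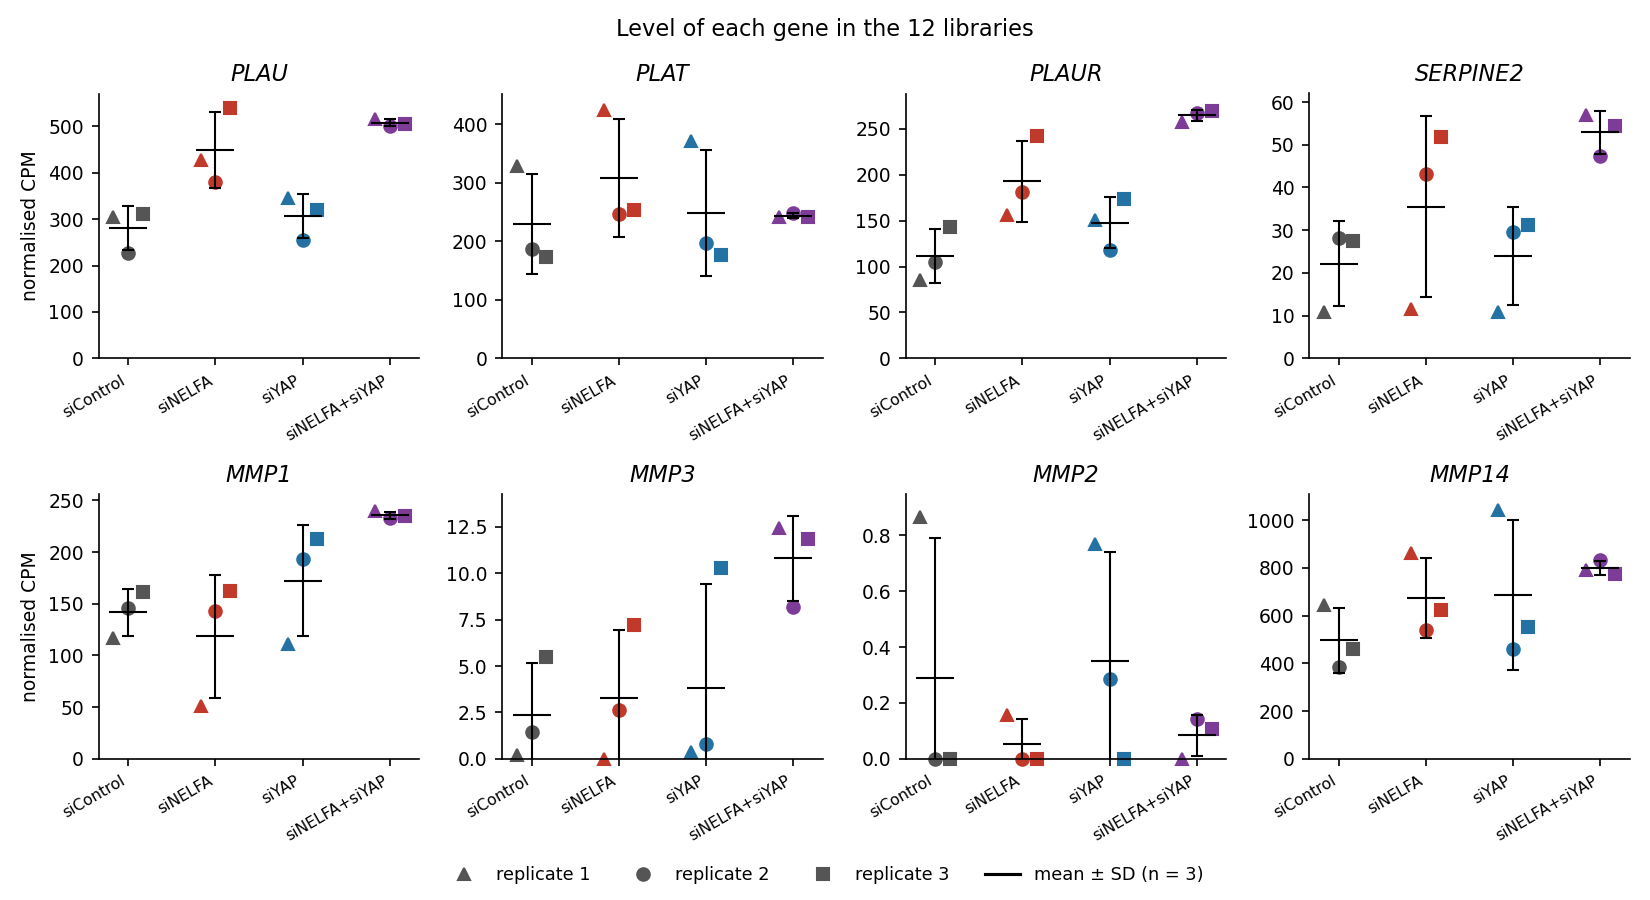
Normalised CPM (y axis, from 0) of each gene in the 12 libraries, by group (x axis); marker shapes give the replicate number, and black bars the mean ± SD of 3 libraries, cut at 0. The siNELFA+siYAP libraries sit close together, PLAU and PLAUR of siNELFA lie above every siControl library, and the triangles of replicate 1 lie apart for PLAT, SERPINE2 and MMP14 in the other 3 groups.

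PLAU, PLAUR and MMP14 are, with PLAT, the members that passed the threshold after NELFA knockdown once replicate numbers were matched (values follow). Promoter sequence from RefSeq (GRCh38.p14) was at hand for PLAU, PLAUR, SERPINE2 and MMP14. Of these, 3 are shown, upstream of the start of the RefSeq entry and on the strand of the gene. The PLAU and PLAUR stretches lie inside the gene spans given below, and the 29 bases of PLAUR were cut around the motif marked in capitals. MMP1, MMP2 and MMP3 had no entry, and PLAT was left out of the search. Capitals mark the motifs searched on both strands, the AP-1 site TGANTCA and the GC box GGGCGG. Neither motif overlaps the other here.
PLAU, chr10:73910882-73911103: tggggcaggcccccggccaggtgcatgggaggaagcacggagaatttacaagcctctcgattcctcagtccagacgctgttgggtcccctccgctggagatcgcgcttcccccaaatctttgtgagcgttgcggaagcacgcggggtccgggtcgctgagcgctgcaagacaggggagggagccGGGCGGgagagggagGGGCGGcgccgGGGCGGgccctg
PLAUR, chr19:43670338-43670366: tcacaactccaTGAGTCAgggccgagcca
MMP14, chr14:22836335-22836559: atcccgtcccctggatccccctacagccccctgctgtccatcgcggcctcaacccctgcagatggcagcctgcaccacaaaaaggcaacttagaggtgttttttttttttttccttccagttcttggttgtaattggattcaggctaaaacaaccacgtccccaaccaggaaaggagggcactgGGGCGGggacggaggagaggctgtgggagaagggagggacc

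In the 250 bases before the start of each entry, PLAUR was the only one of these 4 members with the AP-1 letters, 186 bases upstream. Of 35116 promoters, 6.57% hold them. PLAU held 3 GC boxes in the entry shown and none in its other entry, MMP14 held 1 and SERPINE2 held 1 and 2 in its 2 entries. GC boxes were found in 42.6% of all promoters. The letters of the TEAD site GGAATG, bound by the partners of YAP1, were in none of the 6 entries and in 11.9% of all promoters. These are matches of letters and not measured sites.

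PLAU (ENSG00000122861, chr10:73909177-73917496 on GRCh38, plus strand) encodes urokinase. Its level was 304, 227 and 312 CPM in siControl replicates 1 to 3 and 428, 380 and 539 in siNELFA. It was 347, 254 and 321 CPM in siYAP and 516, 502 and 505 in siNELFA+siYAP. Every library with NELFA siRNA was above every library without it. Against siControl, PLAU was 1.60-fold higher in siNELFA (log2 fold change 0.68 ± 0.21 SE, adjusted p = 1) in edgeR's quasi-likelihood test on 6 libraries. With the replicate number as a block it rose by the same 1.60-fold, with a smaller error (0.68 ± 0.09, adjusted p = 0.0022). Libraries of the same number differed 1.41-, 1.67- and 1.73-fold, all higher in siNELFA. In siNELFA+siYAP the fold was 1.79 (0.84 ± 0.14, adjusted p = 0.0658), and in siYAP it was 1.09 (0.12 ± 0.20, adjusted p = 1). The antisense gene C10orf55 overlaps PLAU and had 13 to 50 counts, against at least 2805 for PLAU.

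PLAUR (ENSG00000011422, chr19:43646095-43670547, minus strand) encodes the urokinase receptor. Its level was 85.6, 105 and 143 CPM in siControl, 156, 181 and 242 in siNELFA and 151, 118 and 174 after siYAP. The siNELFA+siYAP libraries stood at 258, 267 and 269 CPM, above all 9 others. Its order thus ran from siControl through siYAP and siNELFA to the double knockdown, with siYAP overlapping its neighbours on both sides. In siNELFA the fold was 1.74 (log2 0.80 ± 0.25, adjusted p = 1), and with the block PLAUR rose by 0.80 ± 0.10 on the log2 scale (adjusted p = 0.000836). The ratios of libraries with the same number were 1.82, 1.72 and 1.69. In siNELFA+siYAP PLAUR was 2.36-fold higher than in siControl (1.24 ± 0.18, adjusted p = 0.0509), the smallest adjusted p of the 7 tested genes in that comparison and just outside the threshold. Against siYAP alone the double knockdown was 1.79-fold higher (0.84 ± 0.15, adjusted p = 0.124), and against siNELFA alone 1.37-fold higher (0.45 ± 0.16, adjusted p = 0.735). In siYAP the fold was 1.32 (0.40 ± 0.24, adjusted p = 1), and 0.41 ± 0.14 with the block (adjusted p = 0.525).

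PLAT (ENSG00000104368, chr8:42174718-42207709, minus strand) encodes the tissue-type activator. Its level was 328, 187 and 173 CPM in siControl and 425, 247 and 254 in siNELFA. The siYAP libraries stood at 372, 197 and 176 CPM and those of the double knockdown at 242, 249 and 241. Replicate 1 was 1.82-, 1.70- and 1.99-fold above the mean of the other libraries in the first 3 groups and 0.988-fold in the double knockdown, so groups overlapped throughout. Without the block no difference was resolved in siNELFA (fold 1.35, log2 0.43 ± 0.33, adjusted p = 1). With the block PLAT rose 1.36-fold (0.44 ± 0.09, adjusted p = 0.0158), by 1.30, 1.32 and 1.47 in the libraries of the same number. In siNELFA+siYAP the value rested on a single library. The log2 fold change against siControl was 0.07 ± 0.25 (adjusted p = 0.901) with all libraries and 0.43 ± 0.06 (adjusted p = 8.22e-05) without siControl replicate 1.

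SERPINE2 (ENSG00000135919, chr2:223975045-224039318, minus strand) encodes protease nexin-1, which inhibits thrombin, urokinase and tissue-type activator. Its level was 10.7, 28.2 and 27.5 CPM in siControl and 11.5, 43.2 and 51.7 in siNELFA. It was 10.8, 29.7 and 31.3 CPM after siYAP and 57.0, 47.4 and 54.3 in the double knockdown. Replicate 1 of the first 3 groups held 0.385, 0.241 and 0.353 of the mean of the other libraries. SERPINE2 was thus low where PLAT was high. In siNELFA the fold was 1.60 (log2 0.68 ± 0.57, adjusted p = 1), and with the block 0.59 ± 0.17 (adjusted p = 0.0618), with ratios of 1.07, 1.53 and 1.88 for the same numbers. The double knockdown was 2.35-fold above siControl (1.23 ± 0.33, adjusted p = 0.127) and 2.19-fold above siYAP (1.13 ± 0.35, adjusted p = 0.225), with no overlap in either case. Without siControl replicate 1 the first of these was 1.89-fold (0.92 ± 0.10, adjusted p = 1.44e-05).

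MMP1 (ENSG00000196611, chr11:102789401-102798160, minus strand) encodes interstitial collagenase and lies 556 kb beyond the end of YAP1 and 37.6 kb before MMP3. Its level was 117, 146 and 162 CPM in siControl and 51.0, 143 and 162 in siNELFA. The siYAP libraries held 111, 193 and 212 CPM and the double knockdown 239, 233 and 235. Of the 7 tested members it was the only one with the lowest mean in siNELFA. The fold of siNELFA over siControl was 0.841 (log2 -0.25 ± 0.40, adjusted p = 1; -0.38 ± 0.19 with the block, adjusted p = 0.277). The ratio was 0.435 in replicate 1, against 0.982 and 1.00 in replicates 2 and 3. Leaving out both replicate 1 libraries gave a log2 fold change of -0.00083 ± 0.11. MMP1 was lower in siNELFA than in siYAP in 3 of 3 pairs, by ratios of 0.458, 0.740 and 0.764, and with the block it fell by 0.62 on the log2 scale (SE 0.11, adjusted p = 0.000265; -0.53 ± 0.44 and adjusted p = 0.997 without). In the double knockdown MMP1 was 1.65-fold above siControl (0.72 ± 0.13, adjusted p = 0.0735), 1.36-fold above siYAP (0.45 ± 0.22, adjusted p = 0.371) and 1.98-fold above siNELFA (0.99 ± 0.37, adjusted p = 0.735). All 3 double knockdown libraries were above all 9 others. Without siNELFA replicate 1 the last of these folds was 1.54 (0.62 ± 0.07, adjusted p = 0.00146).

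MMP3 (ENSG00000149968, chr11:102835801-102843609, minus strand) encodes stromelysin-1 and was near the limit of detection in several libraries. Its raw counts were 2, 26 and 106 in siControl and 0, 46 and 127 in siNELFA. They were 4, 11 and 167 after siYAP and 150, 114 and 220 in the double knockdown. The 0 in siNELFA replicate 1 allows up to 0.235 CPM (3 counts, counting error only). Normalised, the range was 0.217 to 5.49 CPM in siControl, 0 to 7.22 in siNELFA, 0.385 to 10.3 after siYAP and 8.16 to 12.4 in the double knockdown. The double knockdown did not overlap with siControl or siNELFA but did with siYAP. The log2 fold change against siControl was 2.09 ± 0.76 (adjusted p = 0.215), and those of siNELFA and siYAP were 0.45 ± 1.33 and 0.67 ± 1.28 (adjusted p = 1 for each), errors larger than the values. WTAPP1, a pseudogene on the opposite strand, overlaps MMP1 and MMP3 and had at most 6 counts.

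MMP2 (ENSG00000087245, chr16:55389700-55506691, plus strand) encodes gelatinase A. It had 8, 0 and 0 counts in siControl and 2, 0 and 0 in siNELFA. It had 8, 4 and 0 after siYAP and 0, 2 and 2 in the double knockdown. It did not pass the filter on low counts in any comparison, and no fold is given. At this depth, a difference between groups was not detectable.

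MMP14 (ENSG00000157227, chr14:22836560-22849041, plus strand) encodes the membrane-type protease that activates the MMP2 precursor. Its level was 646, 384 and 459 CPM in siControl and 861, 540 and 623 in siNELFA. After siYAP it was 1043, 458 and 552 CPM, and in the double knockdown 790, 833 and 777. As for PLAT, replicate 1 was high, 1.53-, 1.48- and 2.06-fold above the mean of the others in the first 3 groups. The fold in siNELFA was 1.36 (log2 0.44 ± 0.26, adjusted p = 1), and with the block MMP14 rose by 0.45 ± 0.09 (adjusted p = 0.0104), with the even ratios of 1.33, 1.41 and 1.36. In siYAP the ratios were 1.62, 1.19 and 1.20, and the blocked value of 0.40 ± 0.11 had an adjusted p of 0.509. The double knockdown was 1.60-fold above siControl (0.67 ± 0.20, adjusted p = 0.145) without overlap, and 1.89-fold (0.92 ± 0.07, adjusted p = 2.82e-07) without siControl replicate 1.

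**Figure D2:**
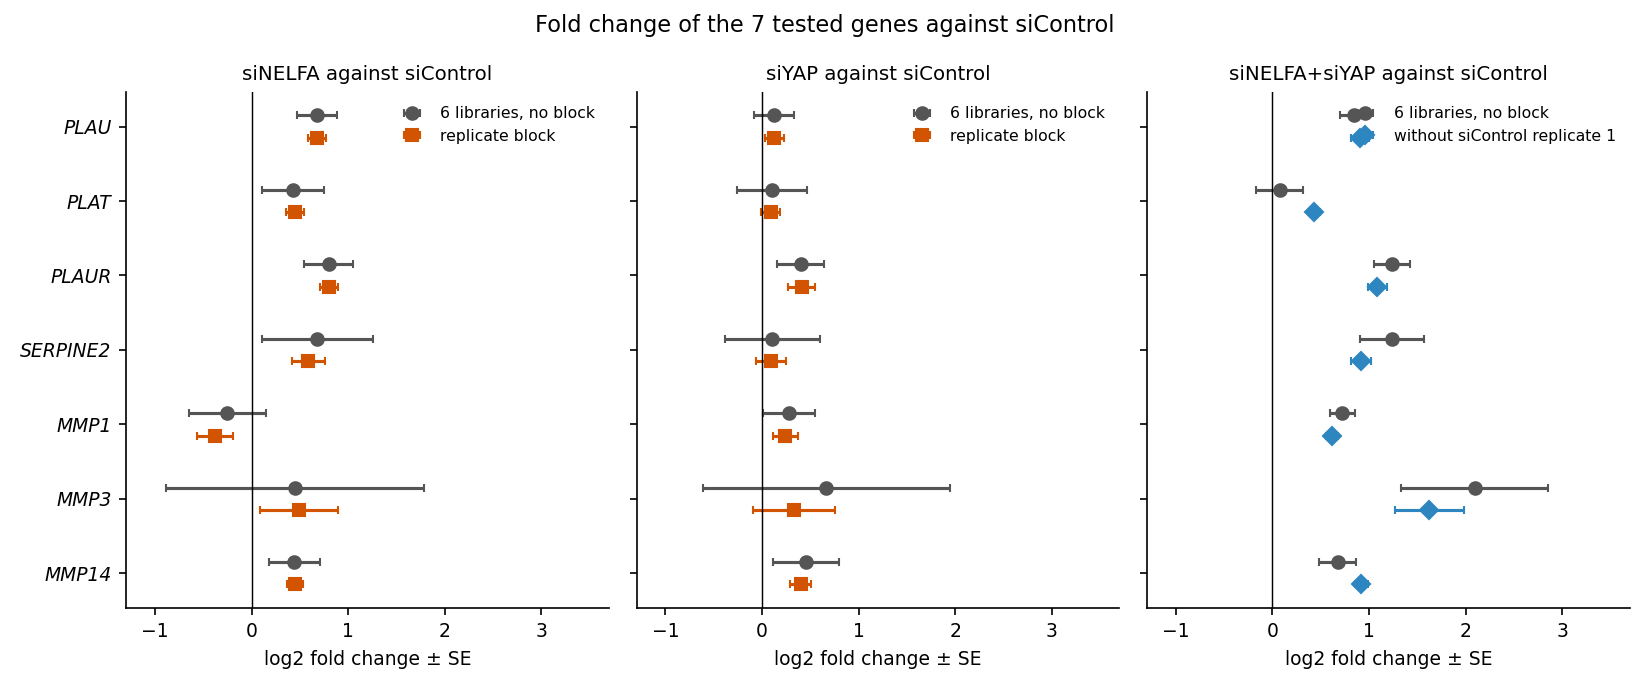
Log2 fold change (x axis) ± SE of the 7 tested genes (y axis) against siControl in siNELFA, siYAP and siNELFA+siYAP; grey circles are fits on 6 libraries without a block, orange squares have the replicate number as a block, and blue diamonds leave out siControl replicate 1. The block leaves the siNELFA values of PLAU, PLAT, PLAUR and MMP14 nearly in place and shrinks their errors, and PLAT of the double knockdown moves from 0.07 to 0.43 without the control library.

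The comparison of siNELFA with siControl asks how loss of the pausing factor alone bears on these genes. Of the 7 members tested, 0 passed the adjusted threshold of 0.05 in edgeR without the block, while 0.00564% of all tested genes did, and 2 passed a nominal p of 0.05 (PLAU and PLAUR, both higher) against 4.46% of all genes. DESeq2 and limma (on log2 TPM with a pseudocount of 1 or 0.1) also called 0, where 0.212%, 0.0283% and 0.0339% of their tested genes were called. The block pairs these groups by their labelled replicate numbers, and that pairing was not shown for replicates other than replicate 1. With the block 4 members rose (PLAU, PLAUR, PLAT and MMP14) and 0 fell, where 5.21% of all genes were called. With both replicate 1 libraries left out, the log2 fold changes of these 4 genes were 0.78 ± 0.19, 0.78 ± 0.17, 0.49 ± 0.10 and 0.47 ± 0.12, with adjusted p of 0.14, 0.123, 0.108 and 0.155.

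The comparison of siYAP with siControl asks the same of the coactivator. No member was called (0 of 7 by edgeR at an adjusted and at a nominal p, 0 by DESeq2), where 0.00578% and 1.3% of all genes passed in edgeR and 0.0116% in DESeq2. Without the block the 7 log2 fold changes lay between 0.11 and 0.67, with no error smaller than 0.20. With the block the errors were 0.10 to 0.43, and 0 members and 0.0173% of all genes passed the adjusted threshold. PLAUR and MMP14 passed a nominal p with the block, against 9.11% of all genes. PLAU, PLAUR, PLAT, SERPINE2 and MMP14 were higher in siYAP in 3 of 3 pairs of the same number, by as little as 1.00-fold for SERPINE2 in replicate 1.

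The double knockdown was compared with siControl and with each single knockdown, and these comparisons share libraries with one another and with those above. Against siControl, 0 of 7 members passed the adjusted threshold, with 0.428% of all genes called, and 6 (all but PLAT) passed the nominal one, against 18.5% of all genes, each of the 6 higher and without overlap between groups. Of all tested genes, 15.9% were higher without overlap and 8.21% also passed the nominal threshold. DESeq2 called 4 (PLAU, PLAUR, SERPINE2 and MMP1), and 8.14% of all genes. The count depended on one library. Without siControl replicate 1 all 7 rose, in a fit that called 24.4% of all genes. Against siYAP, 0 members were called (0.035% of all genes) and 3 passed at a nominal p (PLAU, PLAUR and SERPINE2, 15.5% of all genes), DESeq2 called the same 3 and 4.84% of all genes, and without siYAP replicate 1 all but MMP3 rose, with 16.5% of all genes called. Against siNELFA, 0 were called (0.00573% of all genes) and 2 passed at a nominal p (PLAUR and MMP1, 6.62% of all genes), DESeq2 called 0 members and 0.299% of all genes, and without siNELFA replicate 1 MMP1 and MMP14 rose (log2 0.62 ± 0.07 and 0.46 ± 0.07), with 1.25% of all genes called. Here PLAU differed little between the double and the NELFA knockdown, at 0.17 ± 0.14.

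Between the single knockdowns, 0 members were called without the block (0.0116% of all genes), PLAU passed at a nominal p (5.63% of all genes), and DESeq2 called 0 members and 0.562% of all genes. With the block PLAU (log2 0.55 ± 0.09), PLAUR (0.39 ± 0.09), PLAT (0.35 ± 0.08) and SERPINE2 (0.51 ± 0.13) were higher and MMP1 was lower in siNELFA than in siYAP, where 15.8% of all genes were called. The adjusted p of the 4 higher genes were 8.04e-05, 0.0055, 0.00426 and 0.00876. With both replicate 1 libraries left out and no block, none of the 5 was called, with adjusted p of 0.171 (PLAU), 0.292 (PLAUR), 0.172 (PLAT), 0.148 (SERPINE2) and 0.227 (MMP1) in edgeR. MMP14 differed by 0.05 ± 0.09 with the block, and by 0.21 ± 0.13 with both replicate 1 libraries left out and no block. Whether the effect of siNELFA depends on siYAP was tested as an interaction over 12 libraries. No member passed at an adjusted or a nominal p, 0 by DESeq2, where 0% and 1.76% of all genes passed in edgeR and 0% in DESeq2. The interaction terms were 0.05 ± 0.24 for PLAU and 0.05 ± 0.30 for PLAUR, and 0.71 ± 0.50 for MMP1, whose value with the block was 0.89 ± 0.35 (adjusted p = 0.912).

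Replicate 1 moved the members in different directions. In siControl, siNELFA and siYAP it was high for PLAT and MMP14, low for SERPINE2 and MMP1, and within 0.689- to 1.20-fold of the other libraries for PLAU and PLAUR. For MMP3 the ratio was 0.0626 in siControl and 0.0694 in siYAP, where replicate 2 was also well below replicate 3, at 1.43 against 5.49 CPM and 0.785 against 10.3 CPM. In siNELFA+siYAP all 7 ratios lay between 0.961 and 1.24. For PLAT, SERPINE2 and MMP14 this spread was larger than the blocked change in siNELFA. The same libraries held more CDH1, EPCAM and CD14, as given above.

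**Figure D3:**
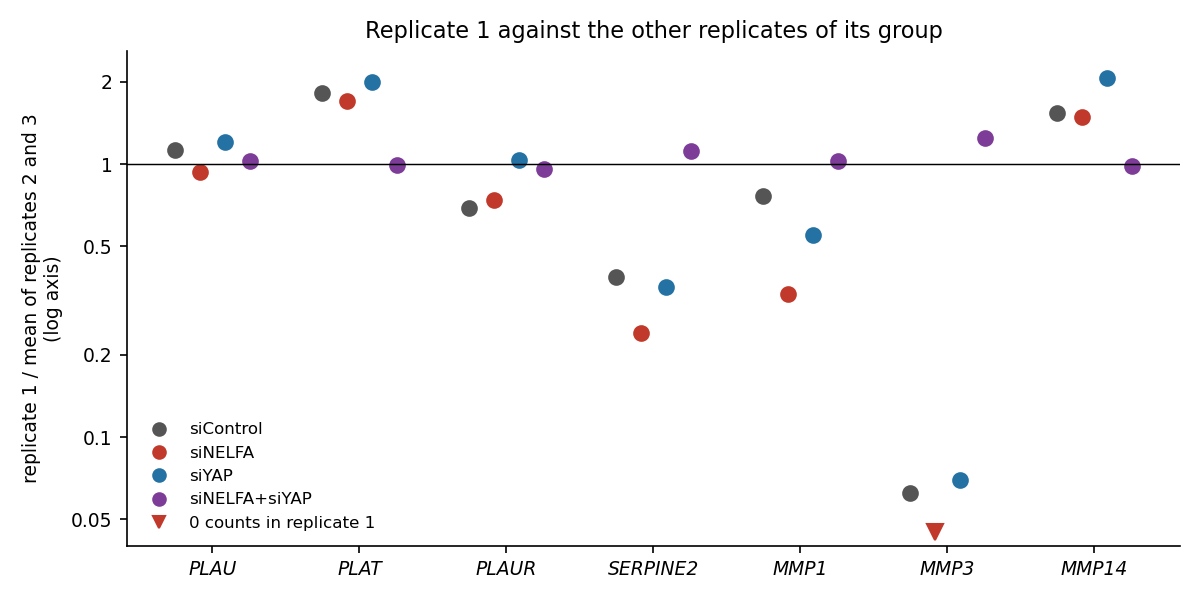
Level of each gene in replicate 1 divided by the mean of replicates 2 and 3 of its group (y axis, log scale), with groups by colour; the triangle marks MMP3 in siNELFA, at 0 counts in replicate 1. PLAT and MMP14 lie above 1 and SERPINE2, MMP1 and MMP3 below 1 in siControl, siNELFA and siYAP, and the double knockdown lies near 1.

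Correlations between members are given as a description, since libraries share groups and replicate shifts, and several moved when the 3 libraries that stood apart were left out. PLAU and PLAUR correlated at r = 0.884 over 12 libraries and 0.982 over the other 9. PLAT and MMP14 correlated at 0.771 and 0.740, and SERPINE2 and MMP3 at 0.888 and 0.624. PLAT and SERPINE2 went from -0.599 over 12 libraries to 0.923 over 9, and PLAT and MMP1 from -0.710 to 0.237. Over the 9 libraries PLAUR and MMP14 (0.964), PLAU and SERPINE2 (0.939), PLAU and MMP14 (0.918) and SERPINE2 and MMP14 (0.884) also correlated, against 0.475, 0.456, 0.676 and -0.211 over 12. Among 12971 genes averaging at least 50 counts, those most like PLAU were NFKBIA, CYB5R1 and MAP1LC3B (r = 0.966 to 0.976), and those most like PLAUR were TEP1, CDKN1A and ZSWIM4 (0.976 to 0.989). RPRD1B was most like SERPINE2 (0.984), C6orf141 most like MMP1 (0.958), ZNFX1 most like MMP3 (0.979) and STEAP3 most like MMP14 (0.979).

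The other genes of these systems were followed as lists of 67 gene identifiers in all, in siNELFA with the block and in the double knockdown without it. The block takes its pairing from the labels and called 5.21% of all genes in siNELFA. Without the block 0 genes of each list were called in siNELFA. In the double knockdown 0.428% of all genes were called. Among the other genes of the plasmin system, 8 of 11 were tested. In siNELFA 0 rose and 1 fell, ENO1, a glycolytic enzyme that can bind plasminogen at the cell surface (log2 -0.36 ± 0.09, adjusted p = 0.0399), while the plasminogen-binding partners ANXA2 and S100A10 had -0.04 ± 0.09 and 0.25 ± 0.09 (adjusted p = 0.839 and 0.154). Their list's median was 0.23, against 0.01 for all genes. In the double knockdown 0 were called, and ENO1 was at -0.41 ± 0.09 (adjusted p = 0.0862).

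Of the inhibitors of the plasmin system, 4 of 8 were tested. SERPINB2, an inhibitor of urokinase, had a log2 fold change of 0.91 ± 0.32 after siNELFA with the block and of 1.61 ± 0.94 in the double knockdown without it (adjusted p = 0.125 and 0.406). Its level was low and variable, at 3.98 ± 5.02 CPM (SD, n = 3) in siControl, 6.53 ± 6.51 with siNELFA, 4.28 ± 4.35 with siYAP and 12.7 ± 0.865 with both. SERPINI1, neuroserpin, which inhibits tissue-type activator, had 1.16 ± 0.53 and 1.76 ± 0.38 (adjusted p = 0.238 and 0.0872). Neither gene was called.

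Of the other serpins, 10 were tested in siNELFA and 8 in the double knockdown. With the block 3 rose in siNELFA and 0 fell, where 5.21% of all genes were called. Without the block 0 were called. The 3 were SERPINA1, antitrypsin (0.55 ± 0.12, adjusted p = 0.0195), SERPINB9, a granzyme B inhibitor (0.55 ± 0.10, adjusted p = 0.0104), and SERPINH1, a collagen chaperone without inhibitor activity (0.42 ± 0.10, adjusted p = 0.0303). SERPIND1, heparin cofactor II, had -2.34 ± 0.64 from at most 48 counts (adjusted p = 0.0541), and SERPINB6 had -0.01 ± 0.10. In the double knockdown 0 were called, and the medians were 0.48 and 0.22 in these comparisons.

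Of the other MMPs, 7 were tested and 0 were called in siNELFA with the block or in the double knockdown without it. MMP9, gelatinase B, showed the widest range of group means in absolute CPM. It stood at 27.8 ± 20.8 CPM in siControl, 27.1 ± 18.5 with siNELFA, 65.1 ± 39.8 with siYAP and 90.3 ± 5.04 with both. Like MMP1, it was lower in siNELFA than in siYAP with the block (log2 -1.34 ± 0.14, adjusted p = 2.42e-07). Its value in the double knockdown against siControl was 1.68 ± 0.67 (adjusted p = 0.245). MMP15 and MMP19 were at 0.54 ± 0.17 and 0.37 ± 0.18 in siNELFA (adjusted p = 0.0957 and 0.267). The medians of the list were 0.37 in siNELFA and 0.04 in the double knockdown.

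All 10 MMP inhibitors, activators and partners were tested, and 5 rose in siNELFA with the block, where 5.21% of all genes were called. Without the block 0 of the 10 were called. TIMP1 (0.55 ± 0.12, adjusted p = 0.0192) and TIMP2 (0.31 ± 0.08, adjusted p = 0.0494) encode tissue inhibitors of MMPs, TFPI2 (0.50 ± 0.11, adjusted p = 0.0185) an inhibitor of plasmin and MMPs, FURIN (0.76 ± 0.13, adjusted p = 0.0079) the convertase that activates the MMP14 precursor, and CD63 (0.43 ± 0.09, adjusted p = 0.0189) a tetraspanin that binds TIMP1. TIMP3 and CD44 had 0.36 ± 0.10 each (adjusted p = 0.0541 and 0.0599), BSG 0.30 ± 0.10 (adjusted p = 0.0887), and the inhibitors TIMP4 and RECK -0.27 ± 0.38 and -0.17 ± 0.15 (adjusted p = 0.757 and 0.568). In the double knockdown TIMP1 rose by 0.94 ± 0.11 (adjusted p = 0.0317), the only gene of the 67 called there, with TFPI2 at 1.31 ± 0.21, FURIN at 1.07 ± 0.21 and CD63 at 0.47 ± 0.11 (adjusted p = 0.0577, 0.0789 and 0.0944). The medians were 0.36 and 0.27.

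**Figure D4:**
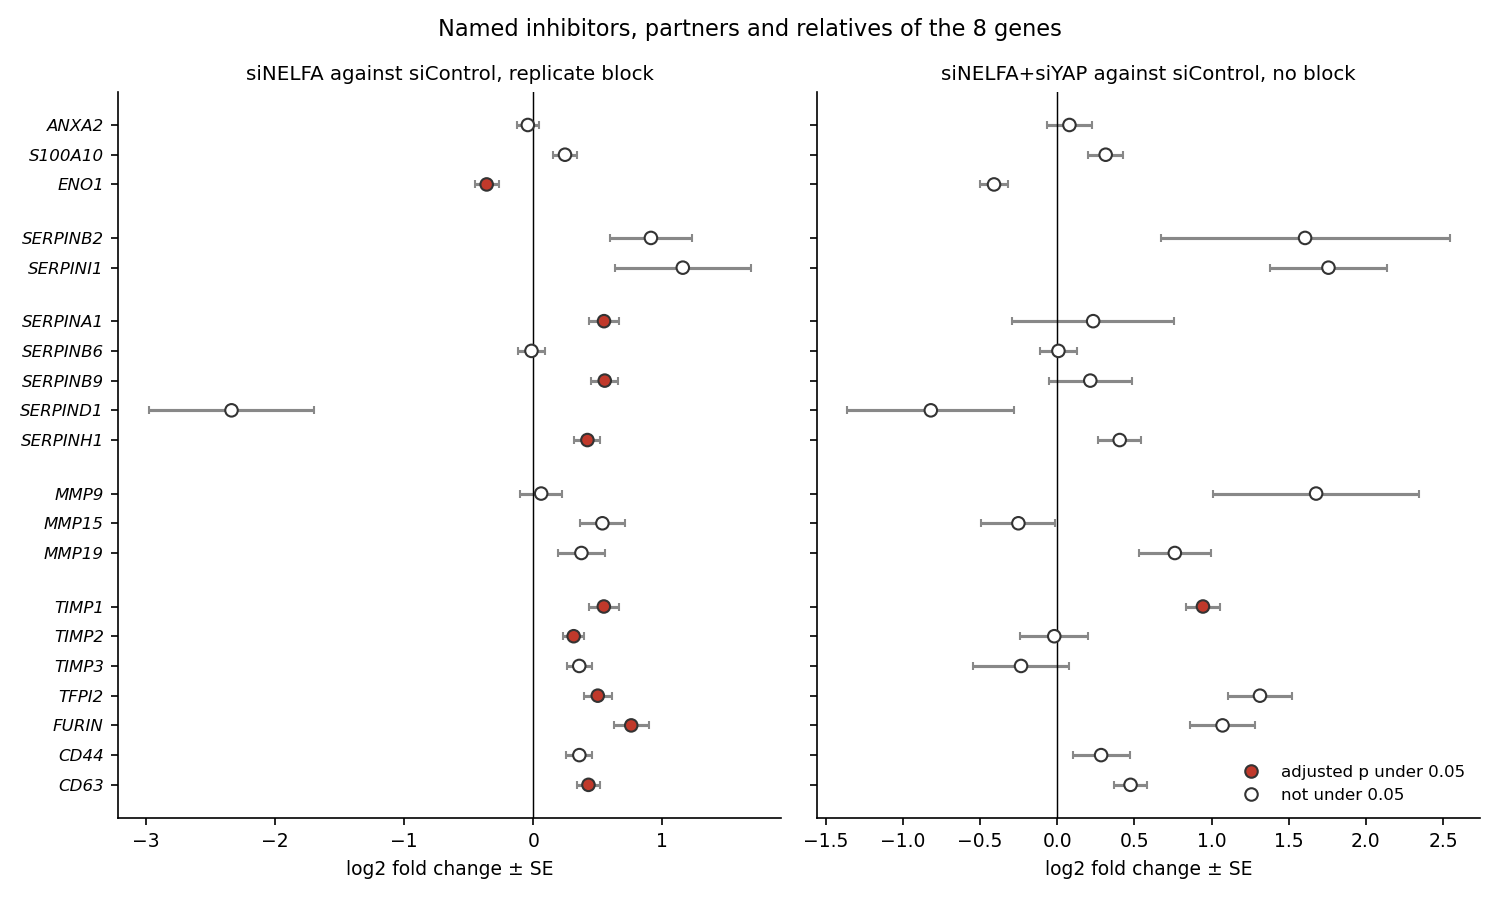
Log2 fold change (x axis) ± SE of the named genes of the 5 lists (y axis, lists separated by gaps) in siNELFA with the replicate block (left) and in siNELFA+siYAP without it (right), each against siControl; red fill marks an adjusted p under 0.05. The left panel holds 8 red genes to the right of 0 and 1, ENO1, to the left, and the right panel holds TIMP1 alone.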

How the data were processed

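RNA of 12 MDA-MB-231 libraries was sequenced after ribosomal RNA depletion with a stranded kit. The authors trimmed reads with cutadapt, aligned them to GRCh38 with STAR and counted them with featureCounts, versions and strand setting not given in the sources used here. The deposited count table holds unnormalised whole numbers for each gene. Of values from 1 to 20, 80.7% were even, as when both mates of a pair are counted, so that intervals from counts would be too narrow. The deposited TPM are the authors' length- and depth-scaled values, used for levels between genes and as an alternative. The FPKM table and the authors' own comparisons were not used.

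From the counts, edgeR 4.0.16 in R 4.3.3 gave TMM factors, CPM and the quasi-likelihood test on the 6 libraries of the compared groups (12 for the interaction), after filterByExpr (minimum count 10, total 15, proportion 70%). p-values were adjusted by Benjamini-Hochberg over all genes tested. Alternatives were DESeq2 1.42.0, RLE factors, no filter, the replicate block, limma 3.58.1 on log2 of TPM plus 1 or 0.1, a 4-group fit and leaving out libraries. Halved counts were an alternative chosen after seeing the data. Tests were tried on simulated data. Whether the labels' replicate numbers mark pairs was checked on 12971 genes. Deviations from group means of libraries with the same number correlated at 0.658 to 0.892 among siControl, siNELFA and siYAP. With siNELFA+siYAP they correlated at -0.0509 to 0.0310, so the numbers carried a shared pattern in the first 3 groups only. Libraries with different numbers were not compared. Replicate 1 stood apart in each of these 3 groups, which shifts the deviations of the other replicates the same way. The correlations therefore cannot show that the other replicates were paired, and the block takes the pairing from the labels.

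The 8 genes and the lists were chosen with earlier results of these data known. A list gene is named if called in a pairwise comparison, with or without the block, or if among the 3 of its list with the highest siControl TPM. For each member, up to 3 genes with the highest Pearson correlation of log2 CPM (prior count 2) are named. Positions are from GENCODE on GRCh38, not the authors' annotation. Some results for single genes under these rules are not reported here. Figures used matplotlib.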

Additional observations from a re-analysis of the deposited data

How the results depend on the processing

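Beside the 0 members called in each comparison, the replicate block called 4 in siNELFA against siControl and 5 in siNELFA against siYAP. It called 5.21% and 15.8% of all genes there. In siNELFA+siYAP against siControl, DESeq2 and the fit without a filter called 4 each, and RLE factors, the 4-group fit and halved counts (chosen after seeing the data) called 1, PLAUR. Over all genes these 5 settings called 1342, 381, 77, 79 and 98 in this order, against 75 in the main fit. Against siYAP, DESeq2 called 3 members and the fit without a filter 2, with 749 and 222 of all genes. Leaving out single libraries gave 0 to 7 members against siControl, 0 to 6 against siYAP and 0 to 2 against siNELFA, the highest without replicate 1 of the reference group. Those 3 fits called 24.4%, 16.5% and 1.25% of all genes. The block called no member in the comparisons with siNELFA+siYAP, whose replicate numbers did not share the pattern of the others. The cause of these changes was not tested.

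Signs turned only for values that no setting called, apart from PLAT and MMP14 in the double knockdown. PLAT in siNELFA+siYAP against siControl was -0.02 by limma with either pseudocount (-0.01642 and -0.01607), and against siYAP 0.054 with the block. Against siYAP, siNELFA gave MMP3 0.10 with the block and 0.29 by limma with a pseudocount of 1, and MMP14 0.0097 without a filter, 0.050 with the block and 0.21 without both replicate 1 libraries. The MMP14 interaction was 0.04574 and 0.046 by limma and 0.18 without the 3 replicate 1 libraries.

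Leaving out single libraries gave, in siNELFA against siControl, -0.54 to 0.11 for MMP1 and -0.83 to 1.92 for MMP3. In siYAP against siControl it gave -0.018 to 0.24 for PLAU, -0.30 to 0.46 for PLAT, -0.21 to 0.45 for SERPINE2 and -2.02 to 2.13 for MMP3. In siNELFA+siYAP it gave -0.087 to 0.43 for PLAT against siControl, and -0.22 to 0.39 for PLAT and -0.00097 to 0.66 for MMP14 against siYAP. In siNELFA against siYAP it gave -1.50 to 2.47 for MMP3 and -0.23 to 0.42 for MMP14. For the interaction it gave -0.076 to 0.21 for PLAU, -0.17 to 0.25 for PLAUR, -0.41 to 3.72 for MMP3 and -0.45 to 0.22 for MMP14.

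Of the members' log2 fold changes under alternatives other than single libraries, 377 kept their direction and side of the threshold, 25 passed it in the same direction and 11 turned, and with single libraries left out these were 290, 16 and 30. Over all genes, edgeR called 1, 1, 75, 6, 1 and 2 genes in siNELFA, siYAP and siNELFA+siYAP against siControl, siNELFA+siYAP against siYAP and against siNELFA, and siNELFA against siYAP. In this order DESeq2 called 28, 2, 1342, 749, 45 and 78, the fit without a filter 3, 1, 381, 222, 26 and 6, and the block 924, 3, 2, 1, 1 and 2721. limma called 5, 1, 11, 1, 2 and 2 with a pseudocount of 1, and 6, 5, 23, 10, 6 and 4 with 0.1. Leaving out both replicate 1 libraries gave 18 genes in siNELFA against siControl and 39 in siNELFA against siYAP, and the 4-group fit 8 and 17. Depth limits MMP2 and MMP3, with at most 8 and 220 counts.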
